A study of Homo sapiens with 6 samples.

Results

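The genes of the inositol phosphate kinases were followed through a 16 h auxin treatment of HCT116 cells, an established line from a human colorectal carcinoma. The set was a list of 10 symbols, ITPKA, ITPKB, ITPKC, IPMK, IPPK, ITPK1, IP6K1, IP6K2, PPIP5K1 and PPIP5K2, matched by gene ID to GENCODE release 29. All 10 were found among the 58780 human genes of the tables, and all 10 were among the 19725 genes with enough counts to be tested. The list was chosen by family around ITPKA, which was selected on its fold change between auxin and DMSO in these same libraries. The changes of the 10 genes are therefore given as a description, without p-values.

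One group was 3 HCT116 libraries treated with auxin for 16 h and the other was 3 HCT116 libraries given DMSO, the solvent. The labels mark the libraries of each group as biological replicates 1 to 3 of the 1 cell line and do not say how the cultures were separated. Auxin is a plant hormone used to trigger degradation of proteins that carry a degron tag. Neither such a protein nor a genotype other than the treatment is named in the labels, and auxin itself and the loss of a tagged protein cannot be told apart in this contrast. RNA was total RNA depleted of ribosomal RNA and sequenced in paired-end, stranded libraries. Expected counts summed to between 234037969 and 625895062 per library, with replicate 1 the deepest in both groups. As a check of the label, 6 of 7 markers of colorectal epithelium exceeded 1 TPM (a relative level that accounts for transcript length) in every DMSO library, and the seventh, VIL1, was at most 0.02 TPM in any library. Of 10 markers of blood, fibroblast, endothelial and red cells, 9 were under 1 TPM in every library and COL1A1 reached 2.61 TPM.

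Inositol phosphate kinases add phosphates to the soluble messenger IP3, which phospholipase C releases from the membrane lipid PIP2 and which opens calcium channels of the endoplasmic reticulum. ITPKA, ITPKB and ITPKC convert IP3 to IP4 and so end its action on the channels. IPMK, ITPK1 and IPPK carry phosphorylation on to IP6, and the IP6K and PPIP5K enzymes then build the pyrophosphates IP7 and IP8, which are known for roles in phosphate and energy balance.

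The 3 IP3 3-kinase genes lie on different chromosomes and differ in the sequence around their starts. The RefSeq windows of 250 bases before to 50 after the start are printed for the genes whose levels are contrasted, 5′ to 3′ on the gene's own strand, with every CpG in capitals. They are GRCh38.p14 chr15:41493624-41493923 on the plus strand for ITPKA, chr1:226739233-226739532 on the minus strand for ITPKB and chr19:40716862-40717161 on the plus strand for ITPKC.
ITPKA: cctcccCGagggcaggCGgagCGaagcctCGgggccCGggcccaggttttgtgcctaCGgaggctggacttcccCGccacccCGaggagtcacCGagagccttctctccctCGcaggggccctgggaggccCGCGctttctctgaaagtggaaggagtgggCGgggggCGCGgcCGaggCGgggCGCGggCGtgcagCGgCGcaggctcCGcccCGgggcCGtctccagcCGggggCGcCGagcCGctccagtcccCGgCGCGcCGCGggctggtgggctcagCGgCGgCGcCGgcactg
ITPKB: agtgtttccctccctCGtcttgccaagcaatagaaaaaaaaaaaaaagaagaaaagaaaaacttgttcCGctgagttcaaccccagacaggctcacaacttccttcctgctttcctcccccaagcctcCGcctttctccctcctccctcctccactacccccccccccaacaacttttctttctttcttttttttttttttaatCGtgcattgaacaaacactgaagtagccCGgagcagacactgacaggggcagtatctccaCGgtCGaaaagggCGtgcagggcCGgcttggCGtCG
ITPKC: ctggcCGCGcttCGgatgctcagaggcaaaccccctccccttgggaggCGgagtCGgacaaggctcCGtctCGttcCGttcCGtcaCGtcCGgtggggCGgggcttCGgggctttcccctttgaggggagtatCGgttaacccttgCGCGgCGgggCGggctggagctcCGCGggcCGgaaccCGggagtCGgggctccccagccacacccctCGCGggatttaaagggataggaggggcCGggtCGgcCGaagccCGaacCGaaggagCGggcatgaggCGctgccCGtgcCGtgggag
The ITPKA window held 38 CpG at 78.0% GC, the ITPKC window 34 at 70.7% GC and the ITPKB window 11 at 50% GC. Over the 35116 RefSeq windows the median was 14 CpG and 58.7% GC, and 9.91%, 15.6% and 54.7% of windows held at least as many CpG as those of ITPKA, ITPKC and ITPKB. The letters GGGCGG, searched on both strands, occurred 2 times in the ITPKA window, 2 times in the ITPKC window and 0 times in the ITPKB window, and 45% of all windows held at least 1. ITPKA and ITPKC were thus alike in these letter counts, and ITPKB had fewer of each. The ITPKB window holds the start of ITPKB-202. ITPKB-203 and ITPKB-201, the transcript with the largest share of the gene's TPM in DMSO, start downstream of it, at positions 226739175 and 226737458 of chromosome 1.

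ITPKA, which also bundles actin filaments and is best known from neurons, was far lower after auxin, while ITPKB and ITPKC stayed near their DMSO levels. ITPKA (ENSG00000137825.10, chromosome 15, 41493393 to 41503551, GRCh38) was at 5.68, 6.33 and 6.29 CPM (counts relative to the TMM-scaled library size) in DMSO replicates 1, 2 and 3. It was at 0.275, 0.218 and 0.194 CPM in auxin replicates 1, 2 and 3. Every auxin library lay far below every DMSO library. The mean went from 6.10 ± 0.362 to 0.229 ± 0.0418 CPM (SD, n = 3 per group), 26.6-fold lower, with a log2 fold change of -4.71 (SE 0.17). The difference within same-numbered replicates was -4.37, -4.86 and -5.02 on the log2 scale. The counts behind these values were 3421, 1784 and 1707 in DMSO and 178, 52 and 43 after auxin. Among all 19725 genes ITPKA was the gene in place 5 counted from the most negative log2 fold change. In RNA from whole cultures, fewer cells that express a gene and less RNA per cell cannot be told apart.

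ITPKB (ENSG00000143772.9, chromosome 1, 226631690 to 226739323), the IP3 3-kinase best known from lymphocytes, was at 13.2, 11.6 and 11.8 CPM in DMSO and at 12.9, 11.0 and 10.7 CPM after auxin. ITPKC (ENSG00000086544.2, chromosome 19, 40717103 to 40740860), the broadly expressed enzyme of the group, was at 10.5, 11.4 and 12.3 CPM in DMSO and at 9.80, 11.0 and 10.8 CPM after auxin. For both genes the groups overlapped. The log2 fold changes were -0.08 (SE 0.10) for ITPKB and -0.11 (SE 0.09) for ITPKC, each negative in 3 of 3 same-numbered pairs, and neither passed the threshold with or without the replicate number as a block. Their sign depended on the scaling: upper-quartile factors gave 0.05 and 0.01. The log2 fold changes of ITPKB and ITPKC were 0.36 and 0.54, and both were called higher, once counts were corrected for the GC content of exons.

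GC content moved with fold change across the whole table. The median log2 fold change of tested protein-coding genes was 0.12 where exons held under 45% GC, 0.15 between 45% and 55%, and -0.64 at 55% or more. ITPKA exons held 64.9% GC, ITPKC exons 60.8% and ITPKB exons 58.2%, all in the upper class. With the correction the class medians were 0.01, 0.03 and -0.07, and ITPKA was at -3.88. ITPKA therefore stayed the member with the lowest value with and without the correction.

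**Figure D1:**
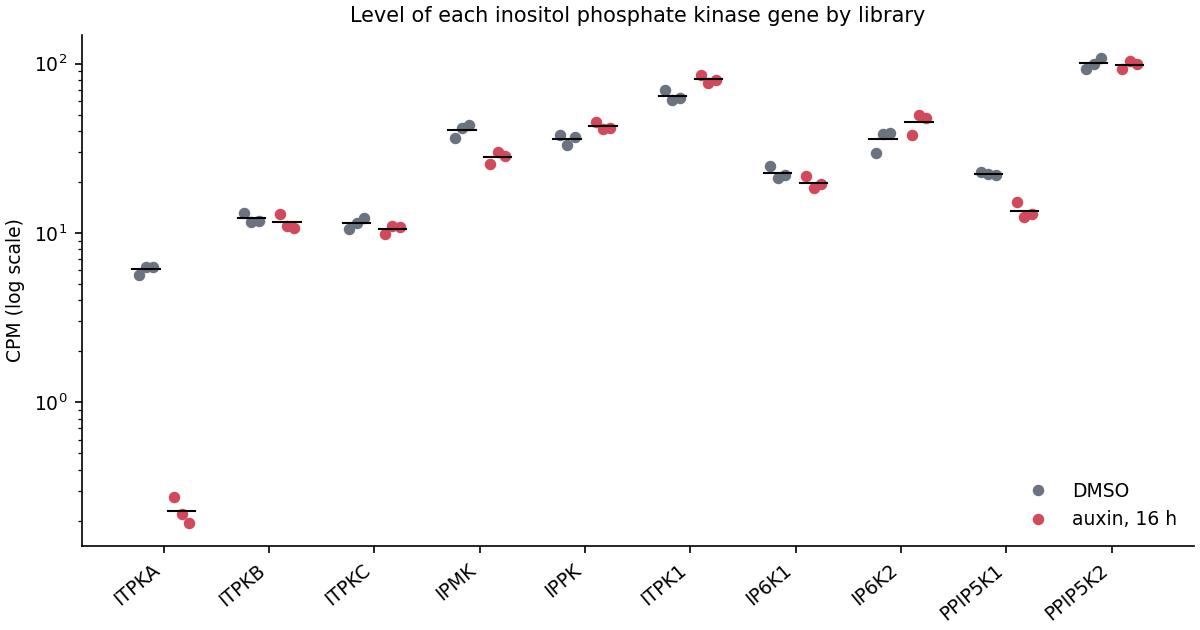
CPM of the 10 kinase genes in each library, on a log axis, with DMSO libraries in grey, auxin libraries in red and a bar at each group mean. The 3 auxin values of ITPKA lie between 0.194 and 0.275 CPM, under all DMSO values of 5.68 to 6.33 CPM, while the ITPKB and ITPKC values of the groups overlap.

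On the deposited TPM scale, which allows levels of different genes to be compared, ITPKA had the highest TPM of the 3 IP3 3-kinase genes in DMSO and the lowest after auxin, summed over all transcripts of a gene. It made up 45.7%, 47.9% and 48.3% of their summed TPM in DMSO replicates 1, 2 and 3, and 3.17%, 3.41% and 3.51% after auxin. The mean share was 47.3% ± 1.38 in DMSO and 3.36% ± 0.175 after auxin (SD, n = 3 per group). The sum of the 3 genes was 13.6, 9.73 and 10.6 TPM in DMSO and 6.00, 4.69 and 4.85 TPM after auxin, so that the groups did not overlap. ITPKB and ITPKC together were at 7.38, 5.07 and 5.49 TPM in DMSO and at 5.81, 4.53 and 4.68 TPM after auxin, with overlapping groups. With the ITPKA part gone, the share of ITPKC was 31.4% ± 0.849 in DMSO and 56.9% ± 3.26 after auxin, and that of ITPKB was 21.3% ± 2.22 and 39.7% ± 3.43 (SD, n = 3 per group). These last shares rest on the ITPKA decrease, since ITPKB and ITPKC themselves kept overlapping levels.

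**Figure D2:**
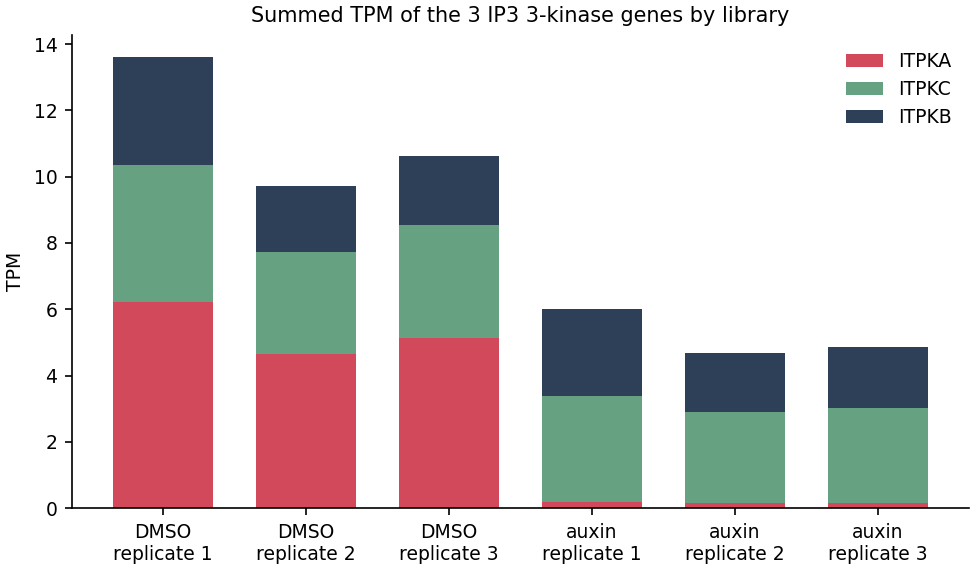
Summed TPM of ITPKA, ITPKC and ITPKB in each library as stacked bars, one bar per library. The total is 9.73 to 13.6 TPM in DMSO and 4.69 to 6.00 TPM after auxin, and the ITPKA segment shrinks to about 3% of the bar.

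At the transcript level, ITPKA counts in DMSO fell almost wholly on 2 GENCODE models. ITPKA-201, the protein-coding model with 7 exons, held 49.5% ± 4.02 of the gene's TPM in DMSO and ITPKA-203, a model with a retained intron, held 49.6% ± 4.41 (SD, n = 3 per group). The even split is one of TPM, for models of 1824 and 854 bases. Their largest expected counts in any library were 2460 for ITPKA-201 and 953 for ITPKA-203. Over all 6 libraries the posterior SD reached 10.6% and 10.7% of the gene's count, so the split is uncertain. In DMSO the protein-coding ITPKA-201 alone was at 2.64 ± 0.454 TPM, ITPKC-201 at 3.53 ± 0.546 and ITPKB-201 at 1.52 ± 0.508 TPM (SD, n = 3 each). ITPKB-202 and ITPKB-203, also protein-coding, were at 0.58 ± 0.104 and 0.34 ± 0.0889 TPM, and ITPKB as a whole at 2.44 ± 0.694 TPM. The first place of ITPKA in summed TPM thus includes the retained-intron model. After auxin ITPKA-201 was at 0.17, 0.07 and 0.06 TPM and ITPKA-203 at 0.01, 0.07 and 0.11 TPM, against at least 2.31 and 2.13 TPM in any DMSO library. Both models were thus low in all auxin libraries. Their split after auxin varied widely, with ITPKA-201 at 89.5%, 46.7% and 35.3%, on few counts, and the groups overlapped.

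Of the kinases that carry IP3 and IP4 on to IP6, IPMK was lower and IPPK and ITPK1 were higher after auxin. IPMK (ENSG00000151151.5, chromosome 10, 58191517 to 58267934), a multikinase that makes IP4 and IP5 and also acts on phosphoinositides, was at 36.3, 41.7 and 43.4 CPM in DMSO and at 25.5, 30 and 28.4 CPM after auxin. The groups did not overlap, and the means were 40.5 ± 3.71 and 28.0 ± 2.32 CPM (SD, n = 3 per group), with a log2 fold change of -0.53 (SE 0.09). IPMK exons held 34.5% GC, the lowest of the 10, so it went against the direction of its GC class.

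ITPK1 (ENSG00000100605.16, chromosome 14, 92936914 to 93116320), which supplies IP5 by a second route, was at 69.8, 60.6 and 62.7 CPM in DMSO and at 85.5, 77.1 and 80.1 CPM after auxin. All auxin values exceeded all DMSO values, and the log2 fold change was 0.33 (SE 0.07). With the GC correction ITPK1 was at 0.83, and without any scaling beyond library size it was at 0.24 and was not called. IPPK (ENSG00000127080.9, chromosome 9, 92613184 to 92670265), the enzyme that adds the last phosphate of IP6, was at 37.7, 33.1 and 36.7 CPM in DMSO and at 45.1, 41.0 and 41.6 CPM after auxin. The groups did not overlap, and the log2 fold change was 0.25 (SE 0.07). The IPPK call was lost with library size only (0.16), with the GC correction (0.17), and without any of DMSO replicate 2 (0.17), DMSO replicate 3 (0.25), auxin replicate 1 (0.21) or auxin replicate 3 (0.27). It was also lost when genes needed only 1 count in any library (0.22) and with limma on log2(TPM + 1) and log2(TPM + 0.1) (0.07 each). IPPK shares 7350 bases with CENPP on the opposite strand, whose level was 6.23 CPM in DMSO and 2.70 CPM with auxin, and ITPKC shares 1105 bases with COQ8B, at 3.53 and 2.10 CPM. Whether counting used the strand is not given in the sources used here, so the counts of IPPK and ITPKC are uncertain to that extent.

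The IP7- and IP8-forming kinases differed among themselves. PPIP5K1 (ENSG00000168781.22, chromosome 15, 43533462 to 43590253), which carries both a kinase and a phosphatase domain and makes IP8, was at 22.8, 22.2 and 21.9 CPM in DMSO and at 15.3, 12.4 and 12.9 CPM after auxin. The groups did not overlap, the mean went from 22.3 ± 0.490 to 13.5 ± 1.53 CPM (SD, n = 3 per group), and the log2 fold change was -0.72 (SE 0.09). RefSeq lists a pseudogene copy of PPIP5K1, which makes read assignment uncertain, and the posterior SD of its count was at most 0.593% of the count under the authors' model. PPIP5K2 (ENSG00000145725.19, chromosome 5, 103120149 to 103212799), its partner enzyme, was at 93.5, 99.8 and 108 CPM in DMSO and at 92.6, 103 and 99.9 CPM after auxin. Its groups overlapped, and its log2 fold change was -0.03 (SE 0.07), with a positive sign under upper-quartile factors (0.09) and without DMSO replicate 3 or auxin replicate 1 (0.01 each).

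IP6K1 (ENSG00000176095.11, chromosome 3, 49724294 to 49786542), which makes IP7 from IP6, was at 24.8, 21.1 and 21.9 CPM in DMSO and at 21.7, 18.4 and 19.4 CPM after auxin. IP6K2 (ENSG00000068745.14, chromosome 3, 48688003 to 48740353), the related enzyme also linked to cell death, was at 29.7, 38.6 and 39.0 CPM in DMSO and at 38.1, 49.9 and 48.0 CPM after auxin. The groups overlapped for both genes, since replicate 1 was the highest of its group for IP6K1 and the lowest for IP6K2 in both treatments. Within same-numbered pairs IP6K1 was lower in 3 of 3 and IP6K2 higher in 3 of 3. The log2 fold changes were -0.19 (SE 0.09) for IP6K1 and 0.34 (SE 0.14) for IP6K2, neither called. Blocking on the replicate number put both past the threshold, at unchanged values of -0.19 and 0.34. Both were also called with replicates 2 and 3 only, at -0.19 and 0.33. IP6K2 was also called with upper-quartile factors (0.46), without auxin replicate 1 (0.46) and with the block and GC correction together (0.46). The GC correction turned IP6K1 to 0.09, and IP6K1 was not called with it, alone or with the block. IP6K3, the remaining gene of that family and not on the list, had 0 counts in every library.

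Counted over the list, edgeR's quasi-likelihood test at a Benjamini-Hochberg adjusted p under 0.05 called 2 of the 10 genes higher, IPPK and ITPK1, where 25.4% of all tested genes were called higher. It called 3 of 10 lower, ITPKA, IPMK and PPIP5K1, where 26.9% of all tested genes were called lower. ITPKA was chosen on its fold change in these libraries, so its call was fixed in advance and the counts are a description only. The CPM of the groups did not overlap in the same 5 genes, against 60.3% of all tested genes. The median log2 fold change was -0.09 over the 10 genes and 0.02 over all tested genes. With the replicate number as a block the counts were 3 higher and 4 lower, against 35.5% and 34.4% of all genes in that fit. With upper-quartile factors they were 3 and 3, against 33.1% and 22.4%.

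**Figure D3:**
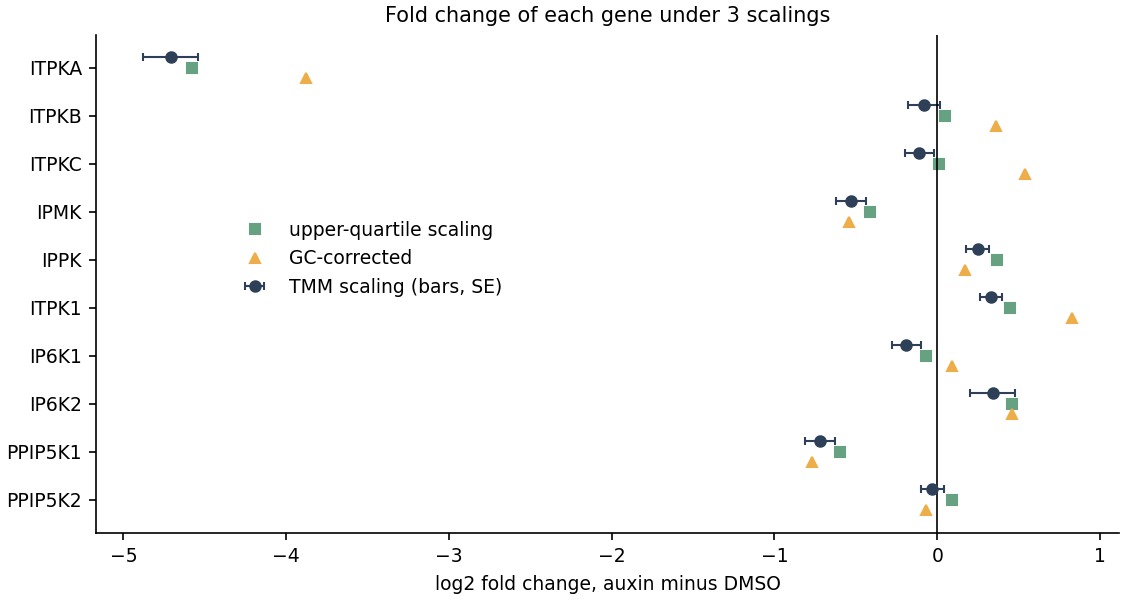
Log2 fold change of each kinase gene, auxin minus DMSO, with TMM factors (circles, bars are the standard error), upper-quartile factors (squares) and GC-corrected counts (triangles). ITPKA lies between -4.71 and -3.88, whereas ITPKB and ITPKC turn from below 0 to above 0 with either other setting, PPIP5K2 with upper-quartile factors and IP6K1 with the GC correction.

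In order of TPM, PPIP5K2 led in DMSO at 41.0 ± 8.82, followed by ITPK1 at 33.3 ± 10.1 and IP6K2 at 32.3 ± 1.98 (SD, n = 3 per group). A middle group held IPPK at 12.9 ± 4.74, IP6K1 at 8.71 ± 2.56, PPIP5K1 at 7.61 ± 2.02, IPMK at 6.72 ± 0.854 and ITPKA at 5.34 ± 0.80 TPM. ITPKC at 3.54 ± 0.547 and ITPKB at 2.44 ± 0.694 TPM were the lowest. Neighbours were apart at 2 of 9 places, between IP6K2 and IPPK and between ITPKA and ITPKC, and the ranges of all other neighbours overlapped. DMSO replicate 1 had the highest TPM for all 10 genes, and without it 8 of 9 places were apart. After auxin the leading genes were IP6K2 at 35.9 ± 1.16, ITPK1 at 35.9 ± 5.92 and PPIP5K2 at 35.4 ± 4.29 TPM, whose ranges overlapped. ITPKA was last at 0.173 ± 0.0153 TPM, below ITPKB at 2.07 ± 0.474 TPM, and neighbours were apart at 5 of 9 places.

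IP6K2 showed the widest difference in transcript use among the 10 genes by a rule chosen after the values were seen. The rule took transcripts holding at least 5% of their gene's TPM in a group and asked for group means at least 5 percentage points apart with no overlap. It took in 35 transcripts of the 9 genes that have more than 1, and 5 of them, or 14.3%, were apart, against 21.2% of all transcripts considered in the table. Among those 5 were 3 transcripts of IP6K2. The junctions that separate its 2 protein-coding ones are printed from the GENCODE 29 transcripts, with the last 30 bases of the shared exon 2 in lower case and the first 30 bases of exon 3 in capitals.
IP6K2-201: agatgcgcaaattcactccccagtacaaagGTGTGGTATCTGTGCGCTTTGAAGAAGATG
IP6K2-202: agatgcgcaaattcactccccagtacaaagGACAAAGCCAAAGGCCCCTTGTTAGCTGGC
Exon 2 is chr3:48695090-48695421 on the minus strand of GRCh38. Exon 3 of IP6K2-201 is chr3:48692954-48693179, and the transcript codes for 426 amino acids over 6 exons. Exon 3 of IP6K2-202, chr3:48693448-48694240, lies in the intron between exons 2 and 3 of IP6K2-201. It is the last of 3 exons, 89 of its 793 bases are coding, and the model codes for 97 amino acids.

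IP6K2-201 held 30%, 32.9% and 32.8% of the gene's TPM in DMSO and 44.6%, 40.7% and 44.0% after auxin. IP6K2-202 held 22.9%, 16.7% and 14.5% in DMSO and 4.86%, 1.69% and 1.40% after auxin. The 2 models moved in opposite directions with no overlap between groups, from 31.9% ± 1.65 to 43.1% ± 2.08 for IP6K2-201 and from 18.0% ± 4.35 to 2.65% ± 1.92 for IP6K2-202 (SD, n = 3 per group). In TPM, IP6K2-202 was at 7.83, 5.05 and 4.70 in DMSO and at 1.68, 0.62 and 0.51 after auxin, while IP6K2-201 was at 10.3, 9.97 and 10.6 and at 15.4, 15 and 16.1. The difference was therefore one of level for both models as well as of share. The 8 models with an exon that starts where exon 3 of IP6K2-202 starts together held 30%, 22.4% and 20.0% in DMSO and 6.45%, 3.51% and 3.40% after auxin. IP6K2-228, a model with a retained intron, held 13.1% ± 0.816 in DMSO and 18.3% ± 0.475 after auxin (SD, n = 3 per group), or 5.55% and 7.60% as a share of expected counts. The posterior SD was at most 1.02% of the gene's count for these 3 models. Splits between models that share exons rest on the authors' assignment of reads.

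**Figure D4:**
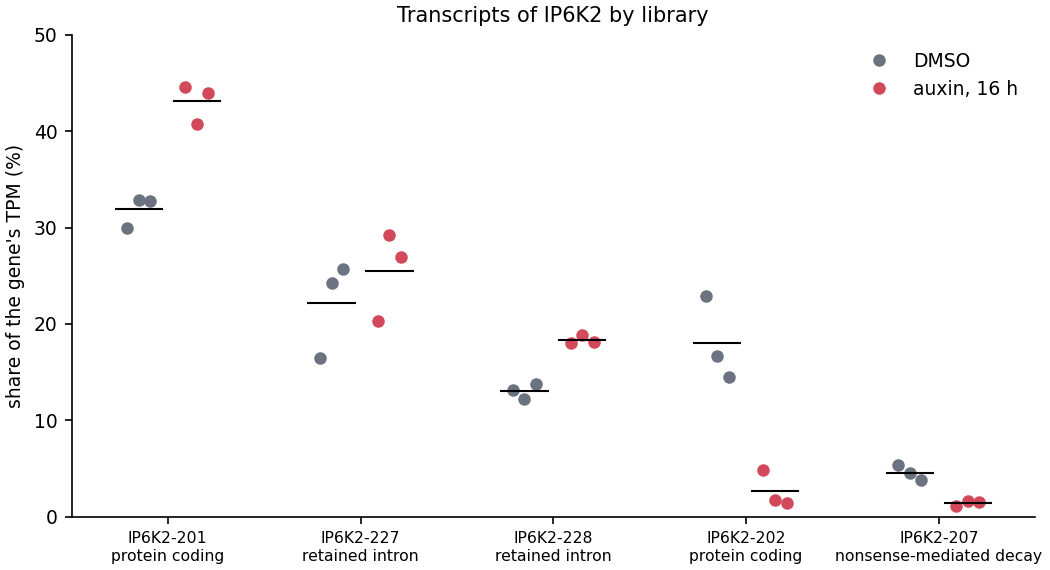
Share of the IP6K2 TPM held by its 5 leading transcripts in each library, with DMSO in grey, auxin in red and a bar at each group mean. IP6K2-202 lies between 14.5% and 22.9% in DMSO and between 1.40% and 4.86% after auxin, and IP6K2-201 between 30% and 32.9% and between 40.7% and 44.6%.

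The remaining 2 transcripts belonged to the PPIP5K genes. PPIP5K1-220, a short model with a retained intron, held 13.8% ± 2.91 of the gene's TPM without auxin and 19.7% ± 1.69 with it (SD, n = 3 per group), but 1.39% and 2.39% of expected counts. PPIP5K2-210, a protein-coding model with 10 exons, held 19.5% ± 0.239 in DMSO and 14.4% ± 1.29 after auxin (SD, n = 3 per group). IPMK has a single transcript, and ITPKC-201 held at least 99.7% of ITPKC in each DMSO library.

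The genes around the kinases were taken from lists made by function, with 61 genes, of which 57 were tested. Among these, 14 rose (24.6%, against 25.4% of all genes) and 26 fell (45.6%, against 26.9%) in edgeR's quasi-likelihood test, and their median log2 fold change was -0.26. With the GC correction 11 were called higher and 30 lower, against 27.2% and 26.6% of all genes in that fit. With limma on log2(TPM + 1) the numbers were 1 and 16, against 4.92% and 15% of all genes. In this and the following paragraphs, changes are log2 fold changes and p is edgeR's Benjamini-Hochberg adjusted p over all genes tested.

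Upstream of the kinases, 8 of 12 tested phospholipase C genes fell (66.7%, against 26.9% of all genes) and 1 rose (8.33%, against 25.4%). PLCG1, activated by receptor tyrosine kinases, fell from 26.6 ± 1.5 to 3.91 ± 1.43 CPM (SD, n = 3 per group; -2.76, SE 0.24, edgeR adjusted p 9.23e-05). PLCG2, its relative known from blood cells, rose from 40.1 ± 0.549 to 53.7 ± 1.33 CPM (SD, n = 3 per group; 0.42, SE 0.05, edgeR adjusted p 0.000386). Of the calcium channels that IP3 opens, ITPR3 fell from 228 ± 14.5 to 69.3 ± 8.55 CPM (SD, n = 3 per group; -1.72, SE 0.10, edgeR adjusted p 1.7e-05). ITPR1 rose from 14.5 ± 0.346 to 29.8 ± 0.14 CPM (SD, n = 3 per group; 1.04, SE 0.06, edgeR adjusted p 1.31e-05). The remaining receptor gene ITPR2 also fell, by 0.53 (SE 0.08, edgeR adjusted p 0.00134). AHCYL1, whose product binds the receptors, was at -0.17 (SE 0.06, edgeR adjusted p 0.047), only just past the threshold. Of calmodulin, the calcium sensor that activates the ITPK enzymes, CALM3 fell (-1.24, SE 0.13, edgeR adjusted p 0.000208) and CALM2 was at 0.29 (edgeR adjusted p 0.0365).

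Among the kinases that supply PIP2, 4 of 9 tested genes rose (44.4%, against 25.4% of all genes) and 1 fell (11.1%, against 26.9%). PI4KA, which makes the precursor of PIP2 at the plasma membrane, fell from 58.2 ± 2.17 to 23.5 ± 1.06 CPM (SD, n = 3 per group; -1.31, SE 0.06, edgeR adjusted p 6.71e-06). PIP4K2A, which makes PIP2 from PI5P, rose from 215 ± 4.48 to 330 ± 15.6 CPM (SD, n = 3 per group; 0.62, SE 0.06, edgeR adjusted p 0.000157). Of 7 genes for inositol supply and phosphatidylinositol synthesis, 4 fell (57.1%, against 26.9% of all genes) and 1 rose (14.3%, against 25.4%). CDIPT, the phosphatidylinositol synthase, fell by 2.69 (SE 0.15, edgeR adjusted p 1.31e-05) and SLC5A3, an inositol transporter, rose by 0.47 (SE 0.08, edgeR adjusted p 0.00271).

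Of the enzymes that remove phosphates, 10 genes were listed for 5-phosphatases that act mainly on phosphoinositides. Of these, 6 fell (60.0%, against 26.9% of all genes) and 1 rose (10.0%, against 25.4%). INPP5J fell from 3.90 ± 0.841 to 0.442 ± 0.134 CPM (SD, n = 3 per group; -3.12, SE 0.26, edgeR adjusted p 7.5e-05), and SYNJ2 rose by 0.29 (SE 0.07, edgeR adjusted p 0.00827). Of 9 genes for phosphatases of inositol phosphates, 3 fell (33.3%, against 26.9% of all genes) and 2 rose (22.2%, against 25.4%), near the shares of all genes. IMPA2, an inositol monophosphatase, fell by 1.11 (SE 0.08, edgeR adjusted p 5.02e-05), and INPP1 was at 0.56 (SE 0.15, edgeR adjusted p 0.0174). Of the genes for phosphatases of the pyrophosphates, both that were tested rose, against 25.4% of all genes. NUDT3 rose from 90.9 ± 1.85 to 150 ± 4.29 CPM (SD, n = 3 per group; 0.73, SE 0.05, edgeR adjusted p 4.04e-05) and NUDT4 by 0.26 (SE 0.05, edgeR adjusted p 0.00533), and the NUDT4 call was lost with the GC correction (adjusted p 0.0758). XPR1, a phosphate exporter that binds inositol pyrophosphates, was at 0.24 (SE 0.07, edgeR adjusted p 0.0195).

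Every gene given with a p went the same way in 3 of 3 same-numbered pairs. Those that fell held 55.7% to 61.8% exon GC, apart from ITPR2 (41.8%) and AHCYL1 (47.7%). Those that rose held 38.3% to 51.3%. With the GC correction the decreases other than those of ITPR2 and AHCYL1 were smaller, from -2.56 for PLCG1 to -0.71 for IMPA2, and stayed called. ITPR3 was then at -1.23 and CDIPT at -2.09. The increases were smaller too, with ITPR1 at 0.86. The calls of INPP1, CALM2 and XPR1 were lost with the GC correction (edgeR adjusted p 0.0582, 0.0511 and 0.0501). INPP1 was also lost without auxin replicate 2 (0.49) or 3 (0.48). CALM2 was lost without DMSO replicate 1 (0.22) or 2 (0.28) and without auxin replicate 2 or 3 (0.25 each), and SYNJ2 without DMSO replicate 2 (0.24). XPR1 was lost without DMSO replicate 1 (0.20), 2 (0.23) or 3 (0.24) and without auxin replicate 2 or 3 (0.21 each). DESeq2 lost CALM2 (adjusted p 0.0585) and XPR1 (adjusted p 0.0547), and library size only lost SYNJ2 (0.20, edgeR adjusted p 0.159). Both limma fits lost PLCG2, ITPR1, SLC5A3, NUDT3, INPP1, CALM2, SYNJ2 and XPR1. PIP4K2A was the only surrounding gene that either limma fit called higher.

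**Figure D5:**
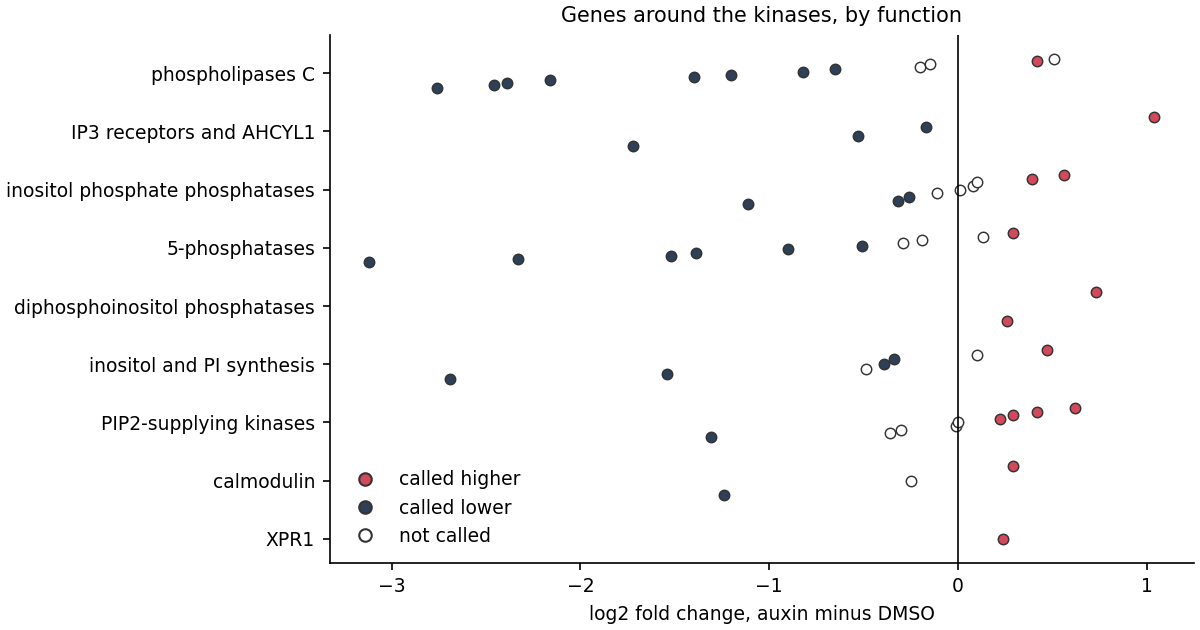
Log2 fold change, auxin minus DMSO, of the 57 tested genes around the kinases, 1 point per gene and 1 row per function, filled where the gene was called. The phospholipase C row has 8 genes called lower and 1 called higher, and both pyrophosphatase genes are called higher.

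The genes with values most like those of ITPKA were named by the distance between log2 CPM profiles over the 6 libraries, each centred on its DMSO mean, among 14153 other protein-coding genes. They were KLC2, a kinesin light chain, at a distance of 0.288, MINK1, a protein kinase, at 0.386, LYPLA2, a lysophospholipase, at 0.398, E2F1, a cell cycle transcription factor, at 0.445, and KLHDC3 at 0.525. Their log2 fold changes lay between -4.64 and -4.52, near that of ITPKA because the genes were chosen on these profiles. Their exons held between 56.4% and 63.6% GC, all in the same upper class as ITPKA. They lie on chromosomes 11, 17, 1, 20 and 6, so none shares the chromosome of ITPKA. The nearest genes to ITPKB were ADNP2, SRD5A1 and CISH, at distances of 0.0605 to 0.0739, and the nearest to ITPKC were PAFAH1B1, RAB14 and IL6ST, at 0.0314 to 0.0487. These 6 genes had log2 fold changes between -0.11 and -0.06, which likewise follows from how they were chosen.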

How the data were processed

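RNA-seq of 6 HCT116 libraries, 3 auxin and 3 DMSO, was used. Per the file headers, the authors deposited for each library and each gene or transcript an expected count, an estimated read number that is not normalized, a TPM, a posterior SD of the count and an effective length, in the layout of RSEM output. The submitters' processing notes name bcl2fastq 2.20, STAR, DESeq2, GRCh38 and hg38 without roles. The annotation and strand setting of the counting are not given in the sources used here. All 58780 human gene IDs matched GENCODE release 29. The other 746 entries held 0.000255% to 0.00111% of counts and were left out.

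Expected counts were rounded, filtered with filterByExpr, scaled with TMM factors and tested with glmQLFit and glmQLFTest of edgeR 4.0.16 in R 4.3.3, auxin against DMSO, with Benjamini-Hochberg adjustment over 19725 genes. The standard error is the log2 fold change divided by the square root of F. On simulated data, with 200 changed genes among 19388 to 19439, 61.7% of 2-fold and 90.4% of 4-fold changes were recovered and 5.35% of calls were false. The simulation held no trend with GC content and no deviation shared by same-numbered libraries. It also held far fewer changed genes than the 10321 called in the data, so these rates need not hold there. Shares of transcripts and the order of genes used the deposited TPM without a test. Replicates of a group differed by a chi-square of 34.81 to 527.7 per degree of freedom, so each library counted as 1 replicate, and p-values measure the spread between these libraries.

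Same-numbered libraries of the groups deviated together (correlations across genes of 0.651, 0.265 and 0.276), which met the rule of over 0.1 in every pair for a fit with the replicate number as a block. DMSO replicate 3 correlated at 0.312 with auxin replicate 2 and DMSO replicate 2 at 0.18 with auxin replicate 3, so the values set replicate 1 apart and do not tell the pairing of replicates 2 and 3. Alternatives were DESeq2 1.42.0, other factors and filters, GC-corrected offsets (lowess on exon GC, span 0.3), the block with and without that correction, limma 3.58.1 on log2(TPM + 1) and log2(TPM + 0.1), leaving out each library, and replicates 2 and 3 only. All 10 kinase genes were named, and of each functional list the called genes of mean CPM at least 1 with the largest positive and negative change, to which ITPR2, AHCYL1 and NUDT4 were added after their values were seen. An item withheld from the text is not reported here. The kinase genes, the lists and the naming rule were chosen with earlier results of these data known. RefSeq promoter windows were found for all 10 kinase genes.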

Additional observations from a re-analysis of the deposited data

How the results depend on the processing

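Over 17 alternatives, ITPKA was called lower in all, with log2 fold changes from -4.93 to -2.43, the latter on log2(TPM + 1), which understates low genes. ITPKA was chosen on this fold change in the same libraries, so its calls are no separate test of it. IPMK was called in 16, PPIP5K1 in 15, ITPK1 in 14 and IPPK in 8. The sign of ITPKB turned to 0.05 and that of ITPKC to 0.01 with upper-quartile factors, which moved the median gene by 0.12, and to 0.36 and 0.54 with the GC correction, alone or with the block. IP6K1 turned to 0.09 with the GC correction, alone or with the block, and PPIP5K2 to 0.09 with upper-quartile factors and 0.01 without DMSO replicate 3 or auxin replicate 1, in a range of -0.08 to 0.01 without single libraries. Kinase genes called higher numbered 0 with library size only, 1 when at least 1 count in any library was asked, and 1 to 2 without single libraries, against 2. The shares of all genes called higher in those fits were 19.7%, 13.3% and 19.2% to 24.9%, against 25.4%. Without single libraries, 9 to 14 of the surrounding genes were called higher, the lowest without DMSO replicate 2, where the share of all genes was 19.2%.

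With the replicate number as a block, 7005 genes were called higher and 6789 lower, 3 and 4 of them kinase genes and 17 and 32 surrounding genes. Of the kinase genes and the surrounding genes given with a p, the block changed the calls of IP6K1 and IP6K2 and no others. The replicate block with the GC correction put 5 kinase genes in the higher group and 3 in the lower, against 35.9% and 33.4% of all genes in that fit. Upper-quartile factors gave 6534 genes higher and 4416 lower, against 5010 and 5311 with TMM factors. Limma on log2(TPM + 1) gave 970 genes higher and 2966 lower, with 0 and 1 kinase genes and 1 and 16 surrounding genes. On log2(TPM + 0.1) it gave 1017 and 3223, with 0 and 2 kinase genes and again 1 and 16 surrounding genes, and PIP4K2A was the 1 called higher. The cause was not tested. In the order by TPM, 2 of 9 places were apart, 2 to 8 without single DMSO libraries (8 without replicate 1, 4 without replicate 2), 8 with replicates 2 and 3 only and 7 by counts per kilobase. As a share of expected counts, IP6K2-201 was at 46.4% in DMSO and 61.2% after auxin, and 4 transcripts rather than 5 were apart. Depth limits ITPKA after auxin, where a library held as few as 43 counts.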
